A study of Mus musculus with 6 samples.

Results

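The genes described here are 9 muscle transcription factors and cofactors, the MEF2 factors Mef2a, Mef2c and Mef2d, the sine oculis homeobox factor Six4 with the coactivators Eya1 and Eya4, the histone deacetylases Hdac4 and Hdac5, and the chromatin remodelling subunit Smarcd3. They were taken by gene symbol from the platform annotation, and they make up 9 of the 19938 genes that have a probe set listed under 1 symbol. All 9 were measured, by 11 probe sets, because Mef2d and Hdac4 have 2 each. The study transfected C2C12 cells, an established line of mouse myoblasts that fuse into myotubes once serum is lowered, and measured total RNA on 6 Affymetrix whole-transcript arrays. One group of 3 arrays carries RNA of cells given an siRNA against mouse H19 (simH19), and the other group of 3 carries RNA of cells given a control siRNA (siCon). Both groups were wild-type C2C12 cells grown with 10% fetal bovine serum, moved to 2% horse serum at about 90% density, transfected at day 1 of differentiation and collected 40 h after transfection. The labels do not say whether the replicates of a group came from separate cultures, and the p-values therefore cover only array-to-array spread, which may be technical.

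MEF2 proteins are MADS-box factors that bind A/T-rich sites in muscle genes, where they act together with the myogenic bHLH factors MyoD and myogenin. Sine oculis homeodomain factors such as Six4 bind MEF3 sites and are activated by EYA proteins, which carry both a transactivation and a phosphatase function. The class IIa deacetylases encoded by Hdac4 and Hdac5 bind MEF2 and repress its targets, and leave the nucleus after phosphorylation by calcium-dependent kinases and binding of Ywha adaptor proteins. Smarcd3 encodes BAF60c, the SWI/SNF subunit that ties the remodelling complex to MyoD.

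The transcript targeted by the siRNA was followed through probe set 10569341, which the annotation gives to both Mir675 and Supt6, since none is listed under H19. It read 10.38, 10.28 and 10.37 on the H19 siRNA arrays, against 12.21, 12.23 and 12.27 on the control siRNA arrays, on the log2 scale used for all levels below. It fell by 1.89 (SE 0.04), to 26.9% of the control level, with a limma adjusted p of 1.80e-05. Mir675 lies in the H19 transcript and yields the microRNA pair below, which is shown because this probe set is the check on the depletion. The sequences are from RefSeq (GRCm38.p6, minus strand), at chr7:142577112-142577133 for the 5p arm and chr7:142577078-142577099 for the 3p arm, with the seed (bases 2 to 8) in capitals.
mmu-miR-675-5p: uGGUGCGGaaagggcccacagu
mmu-miR-675-3p: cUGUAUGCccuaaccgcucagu

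Over the whole array 43 of 21559 units (genes with 1 symbol, plus probe sets with several) passed a limma adjusted p of 0.05, which is 0.199% of them (0.125% higher and 0.0742% lower with H19 siRNA). The 6 arrays were much alike, with Pearson's r between 0.9958 and 0.9975 for all pairs over all rows, and H19 siRNA replicate 2 stood slightly apart with the lowest mean r (0.99617). Markers of myoblasts and myotubes (9 genes, among them Myod1, Des and Chrna1) averaged 11.46 to 11.52 on the H19 siRNA arrays and 11.35 to 11.37 on the control siRNA arrays. Markers of leukocytes, endothelium, adipocytes, epithelium, neurons and glia (13 genes) averaged 5.96 to 6.06 on the H19 siRNA arrays and 5.96 to 6.002 on the control siRNA arrays. Of the 9 markers of myoblasts and myotubes 5 had an unadjusted limma p under 0.05, all 5 higher with H19 siRNA, where 10.9% of all units reached that level. Of the 13 markers of other cell types 1, the macrophage marker Cd68, had an unadjusted limma p under 0.05, with a log2 difference of -0.19. The part of these 13 genes in the differences below was not tested. These are bulk samples, so fewer cells of a kind and less RNA per cell cannot be told apart.

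Among the 9 genes 0 passed a limma adjusted p of 0.05 over all units, and 4 had an unadjusted limma p under 0.05 (Mef2d, Smarcd3 and Six4 with positive and Mef2c with negative differences), a level that 10.9% of all units reached. The 3 arrays of one group lay beyond all 3 of the other for 6 of the 9 genes, 4 higher (Mef2a, Mef2d, Six4 and Smarcd3) and 2 lower (Mef2c and Eya1) with H19 siRNA, and the same held for 17.6% of all units (10.5% higher, 7.09% lower). The median log2 difference of the 9 genes, H19 siRNA minus control siRNA, was 0.03, beside 0.01 over all units, with 5 genes above 0 and 4 below, where 58.0% of all units were above 0. Differences ran from -0.10 for Mef2c to 0.23 for Mef2d. The smallest two-sided p that an exact permutation test allows with 3 arrays a group is 0.1, and all 6 genes without overlap had it. Groups without overlap always give this value, so it repeats the count of 6 and is no further result.

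**Figure D1:**
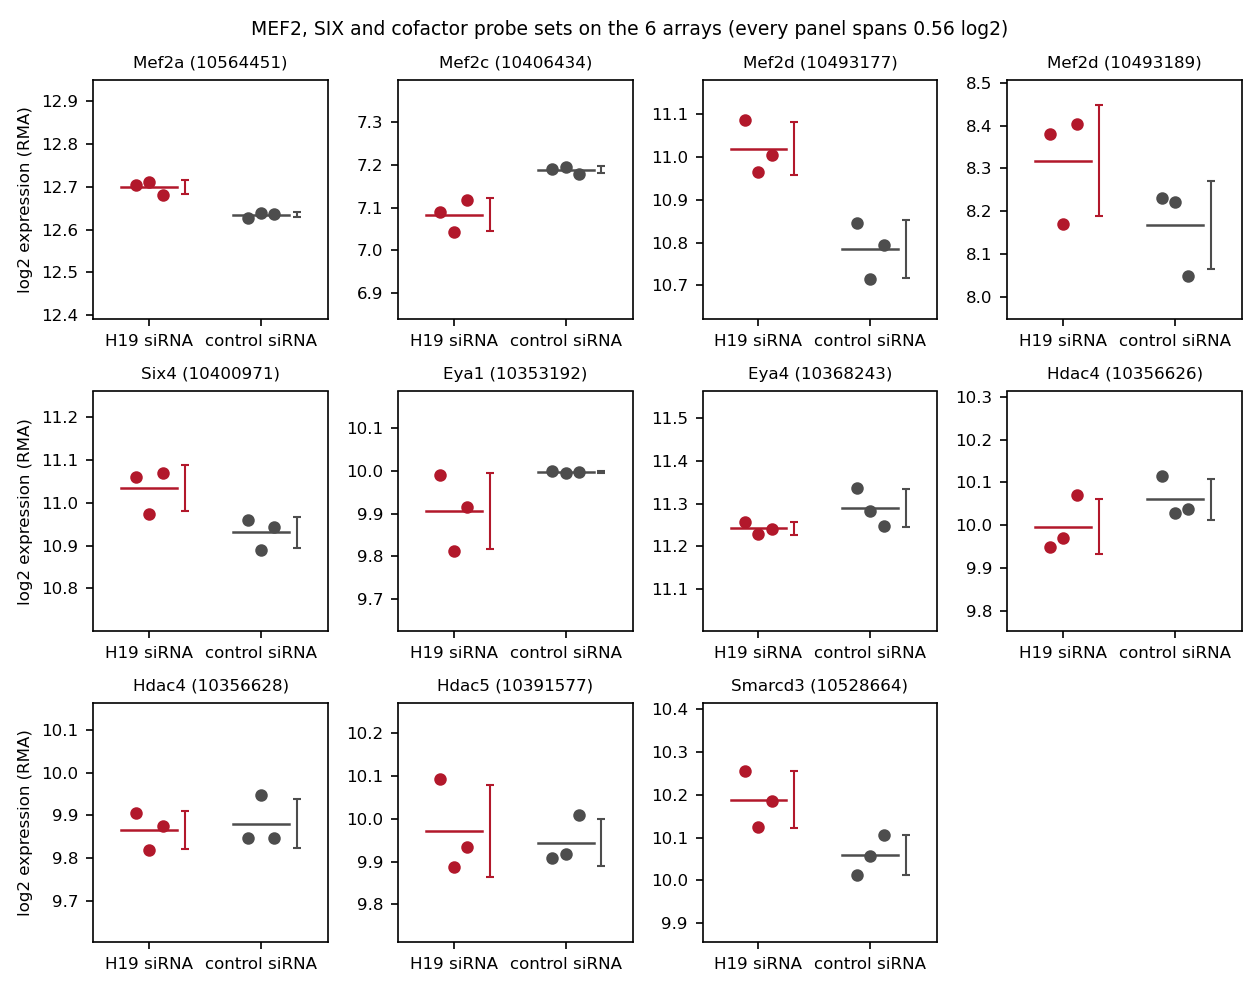
Level of each of the 11 probe sets (log2 expression after RMA, vertical axis) on the 3 H19 siRNA arrays (left, red) and the 3 control siRNA arrays (right, grey), with the mean as a line and the SD as a bar beside the points; every panel spans 0.56 log2 units around its own values, so heights compare across panels as differences only. Mef2d (10493177) shows the widest separation, at 10.97 to 11.09 on H19 siRNA arrays and 10.71 to 10.85 on control siRNA arrays, while the points of Hdac5 and of both Hdac4 probe sets mix.

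Mef2d, the MEF2 gene that is already active in proliferating myoblasts and has a muscle-specific splice form, gave the smallest p of the 9. Its probe set 10493177 read 11.09, 10.97 and 11.01 on the H19 siRNA arrays, against 10.85, 10.71 and 10.79 on the control siRNA arrays. The groups were clear of each other, H19 siRNA being higher, with a gap of 0.12 between the nearest arrays. The difference was 0.23 (SE 0.05, 95% interval 0.12 to 0.35), or 1.18-fold, with a limma p of 0.00241 and an adjusted p of 0.183. The adjusted p was under the threshold where the variance followed an intensity trend with robust estimation (0.00635) and after removing units below the median level (0.0450), and it ran from 0.110 to 0.502 under the other 13 alternatives.
The gene's other probe set (10493189), which the annotation lists through cDNA clones only, read 8.38, 8.17 and 8.404 on the H19 siRNA arrays, against 8.23, 8.22 and 8.05 on the control siRNA arrays. Here the groups overlapped, because H19 siRNA replicate 2 lay below 2 of the control siRNA arrays. Its difference of 0.15 (95% interval -0.06 to 0.36) had a limma adjusted p of 0.679 in the fit over all 35556 rows.

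Mef2a, a MEF2 gene expressed in many tissues, showed a small difference with little spread. It read 12.71, 12.71 and 12.68 on the H19 siRNA arrays, against 12.63, 12.64 and 12.64 on the control siRNA arrays. The groups did not overlap, and they were 0.04 apart at the nearest arrays. The difference was 0.07 (SE 0.03, 95% interval -0.01 to 0.14, limma adjusted p = 0.512), so the interval leaves room for at most a 1.10-fold higher level. After median centring it was 0.04.

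Mef2c, the MEF2 gene that is switched on late in myotube formation and is itself a target of myogenin and MEF2, lay on the other side of 0. It read 7.09, 7.04 and 7.12 with H19 siRNA, against 7.19, 7.20 and 7.18 with control siRNA. All H19 siRNA arrays lay below all control siRNA arrays. The difference was -0.10 (SE 0.03, 95% interval -0.19 to -0.02), or 0.930-fold, with a limma p of 0.0200 and an adjusted p of 0.353. Its mean level was at the 47th percentile of all units, the lowest of the 9 genes, and whether it was above background is not known without detection calls.

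Differences between the 3 MEF2 genes, none of which passed on its own, were compared next. On each array the difference between the log2 values of Mef2d and Mef2c was taken, and it was 0.34 larger with H19 siRNA than with control siRNA, without overlap between the groups. For Mef2d against Mef2a the same quantity was 0.17, and for Mef2a against Mef2c it was also 0.17. Each of these 3 comparisons had an exact permutation p of 0.1, the smallest that 3 against 3 arrays allow. They were chosen after the values had been seen. For Mef2d against Mef2c and Mef2a against Mef2c no other p was possible. The groups were already separate for each of these genes, with Mef2c in the opposite direction. Those p-values therefore add nothing to the separation of the single genes.

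Six4, a homeodomain factor that activates myogenic genes, read 11.06, 10.97 and 11.07 on the H19 siRNA arrays, against 10.96, 10.89 and 10.94 on the control siRNA arrays. The groups were separated by only 0.01 at the nearest arrays. The difference was 0.10 (SE 0.04, 95% interval 0.01 to 0.20), or 1.07-fold, with a limma p of 0.0418 and an adjusted p of 0.437.

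Eya1, a coactivator of embryonic muscle precursors, varied mainly within the H19 siRNA group. It read 9.991, 9.812 and 9.915 with H19 siRNA, against 9.999, 9.996 and 9.997 with control siRNA, where the SD was 0.0016. The groups did not overlap, but H19 siRNA replicate 1 lay only 0.0056 below the lowest control siRNA array. The difference was -0.09 (SE 0.05, 95% interval -0.21 to 0.03, limma adjusted p = 0.569), and without H19 siRNA replicate 2 it was -0.04.
Eya4, a relative of Eya1, read 11.26, 11.23 and 11.24 on the H19 siRNA arrays, against 11.34, 11.28 and 11.25 on the control siRNA arrays. The groups overlapped at their edge. Its difference of -0.05 (SE 0.04, 95% interval -0.13 to 0.04) had a limma adjusted p of 0.693, and it was -0.02 without control siRNA replicate 1. The differences of the EYA pair were not separable, with an exact permutation p of 0.5 for Eya1 against Eya4.

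Hdac4, a class IIa repressor of MEF2, read 9.95, 9.97 and 10.07 on the H19 siRNA arrays, against 10.12, 10.03 and 10.04 on the control siRNA arrays (probe set 10356626). The groups overlapped through H19 siRNA replicate 3. The difference was -0.06 (SE 0.05, 95% interval -0.18 to 0.05, limma adjusted p = 0.671). It was -0.04 without control siRNA replicate 1 or as the mean of both probe sets, and -0.10 without H19 siRNA replicate 3.
Its other probe set (10356628), the one listed with the curated RefSeq transcript, read 9.91, 9.82 and 9.88 with H19 siRNA and 9.85, 9.95 and 9.85 with control siRNA. The points mixed fully, and the difference was -0.01 (95% interval -0.13 to 0.10) with a limma adjusted p of 0.951 in the fit over all rows.
Hdac5, another class IIa deacetylase, had the largest p of the 9 genes. It read 10.09, 9.89 and 9.94 on the H19 siRNA arrays, against 9.91, 9.92 and 10.01 on the control siRNA arrays. The high value of H19 siRNA replicate 1 set the sign of its difference of 0.03 (SE 0.06, 95% interval -0.12 to 0.17, limma adjusted p = 0.899), which was -0.03 without that array. The intervals of both repressor genes leave room for changes of up to about 1.13-fold for Hdac5 upward and 0.886-fold for Hdac4 downward.

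Smarcd3 read 10.26, 10.13 and 10.19 on the H19 siRNA arrays, against 10.01, 10.06 and 10.11 on the control siRNA arrays. The groups did not overlap, with 0.02 between the nearest arrays. The difference was 0.13 (SE 0.05, 95% interval 0.02 to 0.24), or 1.09-fold, with a limma p of 0.0284 and an adjusted p of 0.394.

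**Figure D2:**
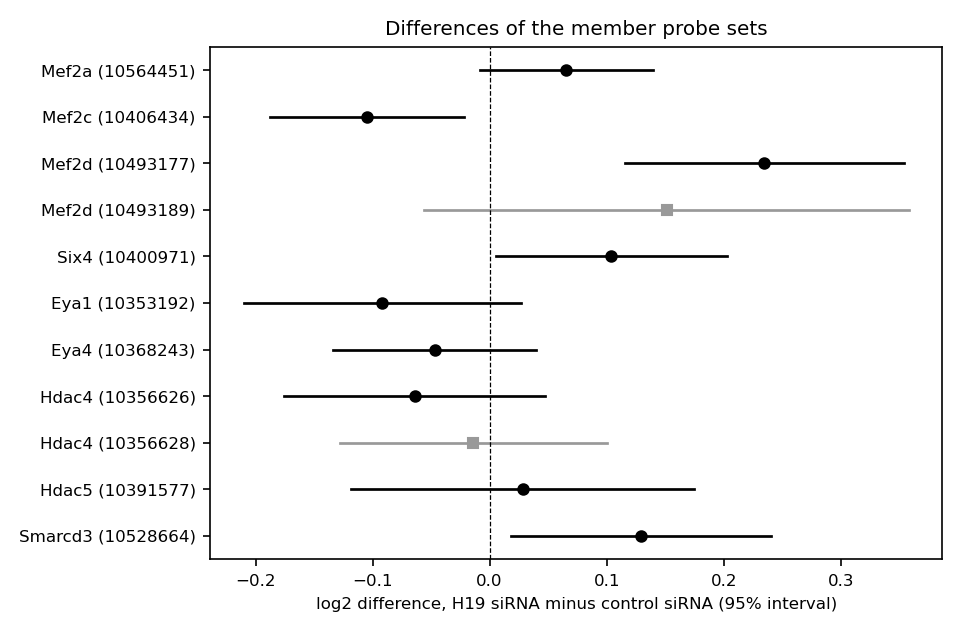
Log2 difference, H19 siRNA minus control siRNA, of each probe set (horizontal axis) with its 95% interval, for the probe set that stands for each gene (black circles, fit over all units) and for the other probe sets of Mef2d and Hdac4 (grey squares, fit over all rows). The intervals of Mef2d (10493177), Smarcd3 and Six4 lie above 0 and that of Mef2c below 0 before any adjustment for the 21559 units tested, and those of the other 7 probe sets include 0.

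The other genes of these families gave no called change. Of 8 further MEF2, sine oculis, EYA and DACH genes analysed here 0 passed under limma, and Eya2, another coactivator of this family, was the 1 gene with an unadjusted p under 0.05 (beside 10.9% of all units). It read 6.18, 6.13 and 6.15 on the H19 siRNA arrays, against 6.08, 6.07 and 6.07 on the control siRNA arrays, a log2 difference of 0.08 (limma adjusted p = 0.455). These levels are near the mean of the markers of other cell types (5.96 to 6.06 on the H19 siRNA arrays). All 8 differences were above 0, with a median of 0.02. But those of Dach1, Eya3, Six2, Six5 and Dach2, the 5 smallest, turned below 0 after centring each array on its median. Dach1 averaged 4.97 with H19 siRNA and 4.95 with control siRNA, and Dach2 averaged 4.63 with each. These means are below the 30th percentile of unit levels (5.84), and whether Dach1 and Dach2 were above background is not known. Six6 was at 0.10 (95% interval -0.10 to 0.30), but between 0.02 (without H19 siRNA replicate 2) and 0.19 (without H19 siRNA replicate 3) with 1 array left out, and Six3 was at 0.07.

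Among 10 measured class II deacetylases and MEF2 corepressors, 0 had a limma adjusted or unadjusted p under 0.05 (unadjusted, beside 10.9% of all units), and the median difference was 0.0043. The class IIa genes Hdac7 and Hdac9, relatives of Hdac4 and Hdac5, differed by 0.04 and 0.03 (0.0035 and 0.0058 without H19 siRNA replicate 1), and the 2 genes of this list with the smallest p, Hdac10 and Morc2a, by -0.08 and -0.04.

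Genes that set the activity of class IIa deacetylases and MEF2 (23 kinases, Ywha adaptors and calcineurin genes) had a median difference of 0.0018, with 12 above 0 and 11 below. Under limma 0 passed and 4 had an unadjusted p under 0.05 (beside 10.9% of all units). Sik1, a salt-inducible kinase that phosphorylates class IIa deacetylases and is known as a protector of MEF2 activity in muscle, had the smallest p. It read 10.54, 10.44 and 10.54 on the H19 siRNA arrays, against 10.29, 10.26 and 10.32 on the control siRNA arrays. The groups were clear of each other, and the difference was 0.22 (SE 0.04, 95% interval 0.12 to 0.32), with a limma adjusted p of 0.136, against 0.00518 where the variance followed an intensity trend and 0.0267 once units below the median level were removed. Of the protein kinase D genes, Prkd1 was at 0.09 and Prkd3 at -0.11, and Ppp3ca, a catalytic subunit gene of calcineurin, was at -0.08. Prkd1 averaged only 5.02 with H19 siRNA and 4.93 with control siRNA, below the 30th percentile of unit levels (5.84). Whether it was above background is not known. Prkd2, outside the rule for named genes and named after its value had been seen, was at -0.0049.

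Of 12 MEF2 and MyoD coactivators 0 passed under limma and 1 had an unadjusted p under 0.05 (beside 10.9% of all units). This was Mamstr, which encodes MASTR, a muscle coactivator that binds MEF2. It read 7.09, 6.91 and 7.01 on the H19 siRNA arrays, against 6.83, 6.73 and 6.69 on the control siRNA arrays, again without overlap. The difference of 0.26 (SE 0.06, 95% interval 0.11 to 0.40) had a limma adjusted p of 0.219, and between 0.116 and 0.549 under its 14 alternatives. The histone acetyltransferase genes Kat2b and Ep300 were at -0.11 and -0.06 (-0.03 and -0.02 without H19 siRNA replicate 2), the arginine methyltransferase gene Prmt5 at 0.07, and the median of the list was -0.0048.

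Smarcd3 was set beside 21 other SWI/SNF subunits, of which 0 passed under limma and 4 had an unadjusted p under 0.05 (beside 10.9% of all units), 3 higher and 1 lower. The lower one was Smarca2, which encodes BRM, one of the alternative ATPases of the complex. It read 9.61, 9.54 and 9.68 on the H19 siRNA arrays, against 9.89, 9.88 and 9.86 on the control siRNA arrays. The difference of -0.27 (SE 0.04, 95% interval -0.37 to -0.16) had a limma adjusted p of 0.0954, which was under the threshold in 4 of 15 alternatives. Smarca4, the gene of the alternative ATPase BRG1, differed by 0.04 (95% interval -0.04 to 0.11). Smarcd1 and Smarcd2, the paralogs of Smarcd3, were at 0.03 and -0.07, and Dpf2, Smarcb1 and Arid1a at 0.12, 0.09 and 0.08. Smarca4, Smarcd1 and Smarcd2 are outside the rule for named genes and were named after their values had been seen.

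The bHLH partners of MEF2 and the muscle genes with MEF2 or MEF3 sites follow. Of 7 bHLH genes 0 passed under limma and 3 had an unadjusted p under 0.05 (beside 10.9% of all units), Myog at 0.22 (adjusted p = 0.0779), Myod1 at 0.23 (0.0965) and Myf5 at 0.13 (0.290). The partner gene Tcf12 was at 0.05, and the median of the 7 was 0.05. Of 22 genes described with MEF2 sites 0 passed, 11 had an unadjusted limma p under 0.05 (beside 10.9% of all units), all 11 higher, and the median difference was 0.10. Of these 11 genes Hspb7, Hrc and Nr4a1 were barely under 0.05, with unadjusted limma p-values of 0.04939, 0.04987 and 0.04996. Their H19 siRNA and control siRNA arrays overlapped. After Myog the smallest p-values were those of Mb (myoglobin, 0.20), Myom2 (an M-band protein, 0.12) and Ppargc1a (a coactivator of oxidative metabolism, 0.15). Among 16 genes described with sites for sine oculis factors, Myog and Myod1 included, 0 passed and 5 had an unadjusted limma p under 0.05 (beside 10.9% of all units), all higher, with a median of 0.06. Actn3, the actinin of fast fibres, and Tnnc1, the slow and cardiac troponin C, differed by 0.15 each, with limma adjusted p-values of 0.240 and 0.248. These lists were written with earlier results of these arrays known and they share genes, so their counts are a description. Hspb7, Xirp1 and Smpx, of the MEF2 list, are named in the plot of the lists for lying outside the range of most units. They were named after their values had been seen. Hrc and Nr4a1 are outside the rule for named genes too, and were also named after their values had been seen.

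**Figure D3:**
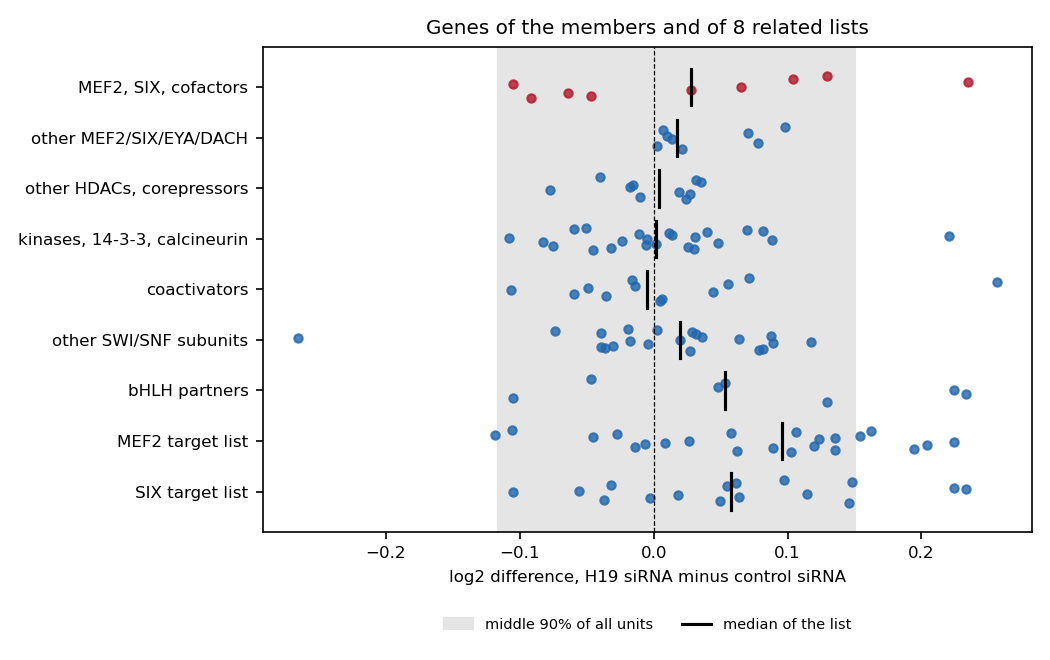
Log2 difference, H19 siRNA minus control siRNA (horizontal axis), of every measured gene (points) in the group of 9 (red) and in 8 related lists (blue), with the median of each as a black line; the grey band holds the middle 90% of all units, from -0.12 to 0.15. Medians lie between -0.0048 for the coactivators and 0.10 for the MEF2 target list, and Mef2d, Sik1, Mamstr, Myog, Myod1, Mb, Hspb7, Xirp1 and Ppargc1a lie above the band and Smarca2 and Smpx below it.

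By the likeness of levels across the 6 arrays, measured as Pearson's r over 19937 other genes, Mef2d was closest to Ubtf (r = 0.996), Rtkn (0.994) and Chrnd (0.993). Of these, Chrnd encodes the delta subunit of the muscle acetylcholine receptor and Ubtf a factor of ribosomal RNA transcription. Their differences were 0.06, 0.15 and 0.19, with limma adjusted p-values of 0.561, 0.249 and 0.231. Hdac5, whose p was the largest, was closest to Mdc1 (r = 0.995), Abcd4 (0.991) and Elovl1 (0.985), with differences of 0.04, 0.03 and 0.01. These values of r rest on 6 arrays and are the highest of all genes compared, so they are given as a description.

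The start regions of the genes were searched for the letters of 3 sites through which these factors act, because the sites tie the family members to each other. RefSeq promoter sequences (GRCm38.p6) were found for 8 of the 9 genes, in 12 windows, and the 250 bases before each start were read on both strands. The motifs were a MEF2 box (CTANNNNTAG), a MEF3 site (TCAGGTT) and an E-box (CAGCTG), which 3.20%, 3.49% and 13.0% of all 32851 windows hold, and no matches overlapped in the windows of these genes. Matches lay in 4 of the 8 genes, and Mef2a, Mef2d, Eya4 and Hdac4 had none. The Myog promoter, where MEF2, sine oculis and bHLH factors meet, is shown beside them. Of the 3 motifs its window matched the MEF3 site only, and neither the MEF2 box nor the E-box as spelled here. The MEF2 box used fixes the letters of both ends and takes any base (N) between them. A missing match therefore does not show that a site is missing, and the shares of windows count these letters, not sites. Each line gives up to 30 bases on either side in the direction of transcription, with the match in capitals. Six4 and Mef2c hold the MEF3 site in reverse (from 97 and 248 bases before a start), Myog holds it as spelled (from 84), Hdac5 holds the MEF2 box (from 20) and Smarcd3 the E-box (from 237). The stretches are chr12:73113306-73113372 (minus strand) for Six4, chr13:83503784-83503822 (plus) for Mef2c, chr11:102230173-102230222 (minus) for Hdac5, chr5:24602204-24602252 (minus) for Smarcd3 and chr1:134289890-134289956 (plus) for Myog.
Six4: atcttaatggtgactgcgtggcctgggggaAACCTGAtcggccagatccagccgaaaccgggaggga
Mef2c: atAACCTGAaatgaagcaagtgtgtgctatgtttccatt
Hdac5: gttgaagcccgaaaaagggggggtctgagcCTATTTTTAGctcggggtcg
Smarcd3: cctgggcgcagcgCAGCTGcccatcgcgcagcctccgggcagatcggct
Myog: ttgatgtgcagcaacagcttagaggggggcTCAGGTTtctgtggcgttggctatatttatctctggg
The genes with a match differed in both directions, from -0.10 for Mef2c to 0.13 for Smarcd3, with Hdac5 at 0.03 and Six4 at 0.10. Mef2d, the gene with the widest difference, held none of the 3 motifs in this window, which says only that these letters are not there.

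**Figure D4:**
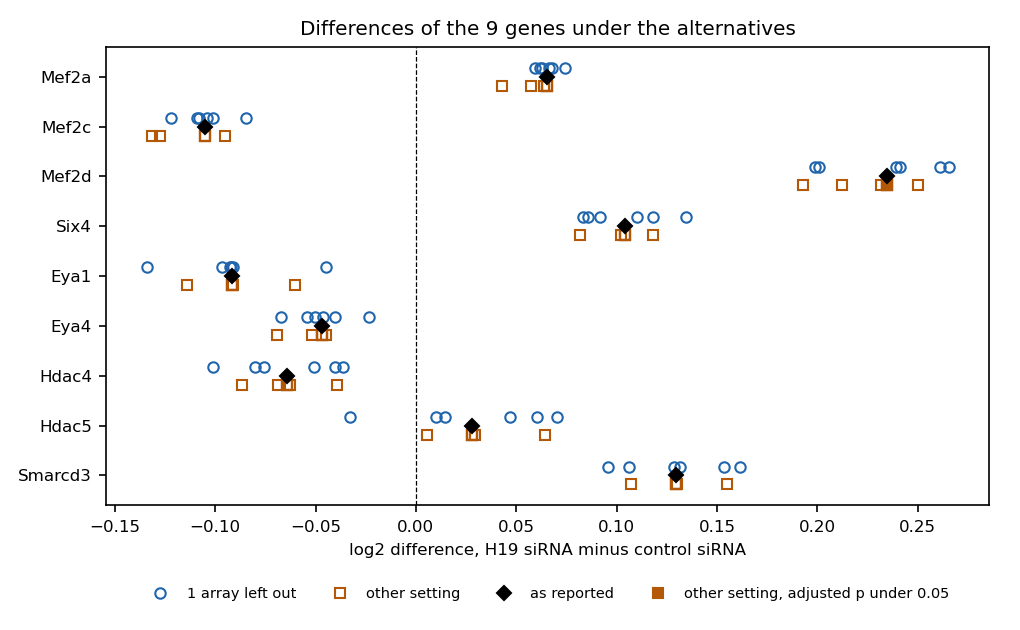
Log2 difference, H19 siRNA minus control siRNA (horizontal axis), of the 9 genes as reported (black diamonds), with 1 array left out (blue circles) and under the other settings (orange squares, filled where the limma adjusted p was under 0.05). Of the 9 genes 8 kept their sign under every alternative in which they were measured, Hdac5 crossed 0 once, and filled squares appear for Mef2d alone.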

How the data were processed

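The authors deposited 1 table of log2 levels for 6 arrays and 35556 probe sets, and the submitters' processing notes name RMA and Affymetrix Expression Console, with no version. RMA corrects background, normalises by quantiles and compresses differences near background. GEO's platform annotation named the probe sets (21789 with 1 symbol, 1621 with several, 12146 unlisted). The probe set with the highest mean stood for a gene, and those with several symbols stayed as unnamed units. Groups were compared with limma 3.58.1 (R 4.3.3; lmFit, then eBayes), two-sided, over 21559 units, with no covariate and no filter, with Benjamini-Hochberg adjustment over all units. All p-values and 95% intervals are from this fit unless named otherwise. The fit was run on simulated data, but every simulated shift was larger than the differences of the 9 members. That run therefore says nothing about calls at their size. The number of arrays, 3 a group, limits the precision. Named genes are the 9 members, all measured family genes, up to 4 genes with the smallest p of each other list, called genes, the targeted transcript and the 3 genes most like the members with the smallest and largest p. The members and lists were chosen with earlier results of these data known. Samples sharing a replicate number did not deviate together (correlations of -0.02, -0.13 and -0.14 over units), so numbers were not taken to pair samples. Alternatives changed the variance model, the filter, scaling, weights, the block, the probe set rule, the rows tested and the arrays included.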

Additional observations from a re-analysis of the deposited data

How the results depend on the processing

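Of the 9 genes 0 were called as reported, with the filter at the 30th percentile, with median centring, a second quantile normalisation, array weights, the replicate block, the mean of all probe sets, all rows, or any array left out (0 to 0). With an intensity trend and robust variance, and with the filter at the median, 1 was called, Mef2d. Their median difference of 0.0281 was 0.0639 with array weights and ran from -0.0327 to 0.0603 with 1 array left out. Hdac5 ran from -0.0327 (without H19 siRNA replicate 1) to 0.0703.

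The count of 43 called units was 435 with the trend, 111 and 266 with filters at the 30th percentile and the median, 70 with array weights, 11 over all rows and 3 with the replicate number as a block. It ran from 1 to 21 with 1 array left out, which also leaves fewer degrees of freedom: 2 calls without the first, 21 without the second and 1 without the third H19 siRNA array, and 1, 3 and 4 when the first, the second or the third control siRNA array was dropped. Related lists had 0 calls as reported and 0 to 0 with an array left out. With the trend 1 kinase gene (Sik1), 1 SWI/SNF gene (Smarca2), 2 MEF2 targets, 4 sine oculis targets and 3 bHLH genes were called. With the filter at the 30th percentile the calls were 1 SWI/SNF gene, 1 MEF2 target, 2 sine oculis targets and 2 bHLH genes, and with the filter at the median 1 kinase gene, 1 SWI/SNF gene, 2 MEF2 targets, 2 sine oculis targets and 2 bHLH genes. The lists share genes, so these counts are not separate. Under the trend and both filters, Myog was counted in the MEF2, sine oculis and bHLH lists, and Myod1 in the sine oculis and bHLH lists. With the filter at the 30th percentile, Myog and Myod1 made up all calls of those lists. A second quantile normalisation called 1 SWI/SNF gene. The cause of these shifts was not tested.

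Among uncalled genes near 0, median centring gave -0.0014 for Dach1, -0.0087 for Eya3, -0.0123 for Six2, -0.0152 for Six5, -0.0197 for Dach2 and -0.0103 for Elovl1. The second quantile normalisation gave -0.0141 for Dach1, -0.0266 for Six2 and -0.0248 for Dach2, and array weights -0.0395 for Dach2. With 1 array left out, Dach1 ran from -0.0165 to 0.0539, Eya3 from -0.00075 to 0.0244, Six2 from -0.0240 to 0.0486, Six5 from -0.0541 to 0.0749, Dach2 from -0.0451 to 0.0970, Mdc1 from -0.0392 to 0.0933, Abcd4 from -0.0246 to 0.0705 and Elovl1 from -0.0037 to 0.0241. Signal over background was not available, so how well dim probe sets are measured is not known.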
